A study of Mus musculus with 6 samples.

Results

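The phagocyte NADPH oxidase was followed here through 5 of its genes, Cybb, Cyba, Ncf1, Ncf4 and Rac2, which were taken by name from a table of 23016 genes counted in single cells. All 5 were found in it. The 6 libraries, 1 per group, were bone marrow of aged and of young mice 24 h after middle cerebral artery occlusion (an experimental stroke), blood of aged and of young mice at steady state, and bone marrow of aged and of young mice at steady state. All mice were wild-type. Marrow was enriched for cells carrying Gr1 or c-kit, and blood was sorted on CD11b with and without Ly6G, so that gates, and not only the tissue, set which cells a library holds. The labels give neither the ages in months nor the number of mice in a library. With 1 library per group there are no replicates, and an interval on a single level covers counting error only. The models leave 1 to 3 residual degrees of freedom, which hold how an effect varies between ages, contexts or libraries, not between animals. Their p-values therefore rest largely on a spread pooled over the genes tested. A very small p does not measure how alike the pairs of libraries were.

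The oxidase makes superoxide in phagocytes. Its catalytic core, a flavocytochrome in the membrane, is a pair of gp91phox, encoded by Cybb, and p22phox, encoded by Cyba. In a resting cell the organiser p47phox (Ncf1) and p40phox (Ncf4) stay in the cytosol, and on stimulation they move to the membrane together with a Rac GTPase, in neutrophils mainly Rac2, and electrons then pass from NADPH to oxygen. Loss of gp91phox, p22phox, p47phox or p40phox causes chronic granulomatous disease. During granulocyte formation the core is made before the cell is mature and is stored in the membrane of specific granules.

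The genes lie apart in the genome except for a pair on chromosome 15. In GENCODE M21 (GRCm38) Cybb spans chrX:9435252-9487771 on the minus strand, Cyba chr8:122424776-122432930 on the minus strand, Ncf1 chr5:134220053-134229625 on the minus strand, Ncf4 chr15:78244801-78262580 on the plus strand and Rac2 chr15:78559167-78572783 on the minus strand. All are protein-coding. Since the assay reads the 3′ end of a transcript, the last 400 bases of their transcripts were searched for words of 31 bases found in any other gene. Such words were absent for 4 genes and made up 1.58% of those of Ncf1.

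Because all 5 genes rose in the same step of neutrophil formation (below), the sequence around the transcription start is shown for the 3 genes with a RefSeq promoter window, Cybb, Cyba and Ncf1. Each run reads 5′ to 3′ in the direction of the gene, from 100 bases before to 30 bases after the RefSeq start (GRCm38.p6, minus strand for all 3). Capitals mark GAGGAA (the core bound by the myeloid regulator PU.1), an Ets-IRF composite element (GGAA, any 2 bases, then GAAA) or CCAAT, each on either strand.
Cybb, chrX:9469295-9469424: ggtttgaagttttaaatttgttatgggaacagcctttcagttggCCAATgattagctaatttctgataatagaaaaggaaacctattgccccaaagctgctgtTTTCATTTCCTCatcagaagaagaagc
Cyba, chr8:122432911-122433040: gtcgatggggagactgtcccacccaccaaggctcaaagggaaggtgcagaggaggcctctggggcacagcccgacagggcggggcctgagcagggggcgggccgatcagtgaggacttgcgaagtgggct
Ncf1, chr5:134229596-134229725: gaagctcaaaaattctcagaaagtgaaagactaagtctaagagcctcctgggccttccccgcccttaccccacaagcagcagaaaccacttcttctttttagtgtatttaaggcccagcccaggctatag
Over the full windows of 300 bases, the Cybb window held 1 match to each motif, and the windows of Cyba and Ncf1 held none. In the Cybb window the matches to the Ets-IRF composite element and GAGGAA overlap and lie on the opposite strand. Among 32851 mouse windows of this length, GAGGAA occurred in 28.3%, the Ets-IRF composite element in 2.72% and CCAAT in 37.4%. The motifs are ones known from work on the human CYBB promoter, and a match of letters does not show that a factor binds.

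Cells were grouped by clustering each context with the oxidase genes left out of the variable genes, and clusters were named from fixed marker lists. Class names below mean cells like that class. The deposited totals were 10208699 to 72743805 UMIs per library, with medians of 3810.5 to 9302 UMIs per cell. Class sums are given as CPM, the UMIs of a gene for every 1000000 UMIs in that class and library. Marrow at steady state gave no cluster with the name of mature neutrophils, and nearly all mature cells came from blood, with 3073 cells in the aged and 1486 in the young library, against 132 and 170 cells in aged and young marrow after stroke. NK-like cells, which should lack Cybb, served as the background for this gene. Cybb there stood at 1.85 CPM (aged) and 0 CPM (young, where 3 counts would be 9.78 CPM) after stroke, and at 7.42 CPM (aged) and 54.4 CPM (young) in blood. In young blood few thinned NK-like cells held a Cybb UMI (below). Whether these UMIs came from free RNA or from a few cells was not tested. Erythroid-like cells held 13.2 CPM (aged) and 0.473 CPM (young) after stroke and 18.9 CPM (aged) and 19.8 CPM (young) at steady state. Levels of Cybb near these values are not by themselves read as expression. Steady-state marrow gave no cluster named NK-like. An unnamed cluster there, with 136 aged and 128 young cells, held 383 and 462 CPM of Cybb. At Leiden resolution 0.5 an unnamed cluster of the same cell numbers was led by Ccl5 and Trbc2 and marked as mixed with dividing pre-neutrophils. The part of RNA from other cells in the steady-state levels of Cybb was not tested. Libraries shared 5 to 21 cell barcodes per pair.

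The catalytic subunit Cybb climbed steeply within the neutrophil lineage and fell again at its end. In stem and progenitor cells it stood at 7.66 and 10.2 CPM in aged and young marrow after stroke and at 14.2 and 17.3 CPM in aged and young marrow at steady state, below the erythroid cells of the same library in 3 of 4 libraries and above them in young marrow after stroke. In granulocyte progenitors it reached 52.5 and 43.7 CPM after stroke and 65.4 and 74.5 CPM at steady state. In dividing pre-neutrophils it was 1014 and 988 CPM after stroke and 1544 and 1581 CPM at steady state. In immature neutrophils it was highest, at 1410 and 1517 CPM after stroke and 2571 and 2570 CPM at steady state, in the same order of aged and young. In mature neutrophils it stood at 368 and 270.3 CPM after stroke and at 98.4 (aged) and 60.7 CPM (young) in blood. The levels of neighbouring stages did not overlap between libraries, apart from those of dividing and immature cells, whose ranges overlapped across contexts but not within a library. The young value in mature blood cells lay inside the counting interval of NK-like cells of the same library, 38.1 to 75.4 CPM (95%). That interval takes the UMIs of a cell as independent.

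**Figure D1:**
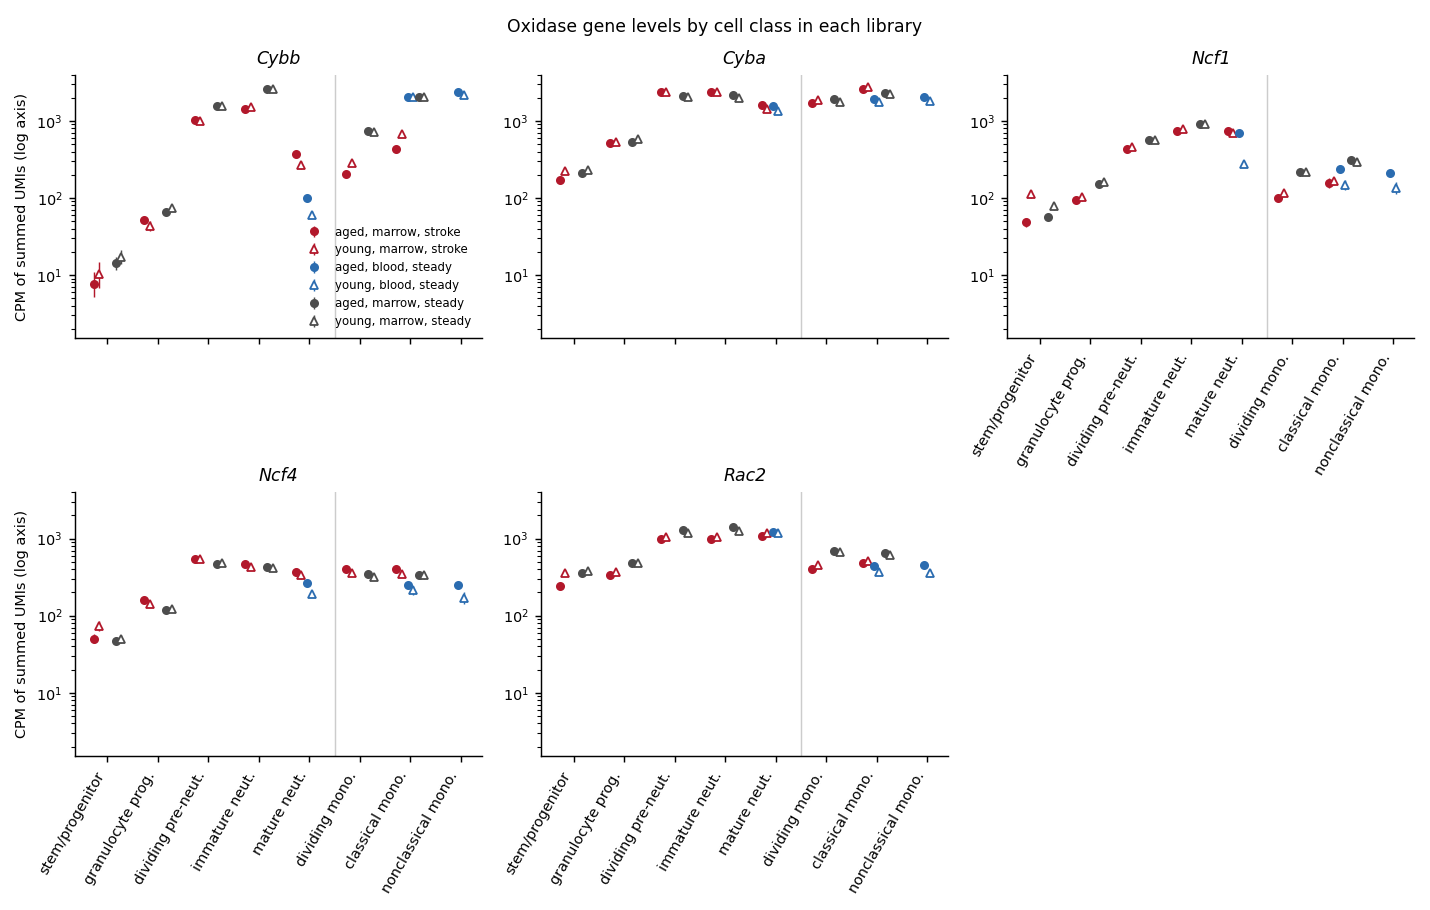
Level of each of the 5 oxidase genes as CPM of summed UMIs (log axis) in 8 cell classes; each point is 1 library, filled for aged and open for young, with its exact Poisson 95% interval. Cybb is highest in immature neutrophils (1410 to 2571 CPM), in blood monocytes and in classical monocytes of steady-state marrow. Among neutrophil stages after the progenitors it is lowest in mature blood cells (60.7 to 98.4 CPM).

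All 5 genes passed the test as higher at both early steps over the 4 marrow libraries (edgeR's quasi-likelihood test with the library as a block, Benjamini-Hochberg adjustment over all genes tested, threshold 0.05). In granulocyte progenitors over stem and progenitor cells, 5 of 5 were higher, where 27.4% of 12227 genes were called higher and 28.2% lower. The log2 differences ran between 0.57 ± 0.10 (SE, 4 libraries, Rac2, adjusted p = 0.00254) and 2.53 ± 0.14 (Cybb, adjusted p = 3.11e-05). Ncf1 was not higher in every library: its scaled log2 ratio was 1.19 in aged and 0.08 (-0.13 to 0.30, counting error) in young marrow after stroke, and 1.69 in aged and 1.32 in young marrow at steady state. In dividing pre-neutrophils over granulocyte progenitors, 5 of 5 were again higher, where 35.4% of 11231 genes were called higher and 37.5% lower. Cybb gained most, 5.16 ± 0.13 on the log2 scale (35.6-fold, adjusted p = 2.38e-08), and was higher in 4 of 4 libraries. The other 4 gained between 2.16 (Rac2) and 2.76 (Cyba).

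The step to immature neutrophils separated the subunits. Ncf1 and Cybb rose by 1.05 ± 0.06 (adjusted p = 3.6e-10) and 0.94 ± 0.06 (adjusted p = 1.975e-09), Rac2 and Cyba by 0.37 ± 0.06 and 0.30 ± 0.05, and Ncf4 did not pass the test (0.08 ± 0.06, adjusted p = 0.222). Thus 4 of 5 were called higher, where 33.8% of 9228 genes were called higher and 33.5% lower. Without scaling factors, with library totals alone, the median of all genes moved to -0.30 and the smaller values changed: Cyba was at -0.01, Rac2 at 0.06 (adjusted p = 0.392), and Ncf4 was lower by -0.23 (adjusted p = 0.00285), while Ncf1 and Cybb stayed higher at 0.73 and 0.63.

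In mature over immature neutrophils, which only both stroke libraries could test, 4 of 5 genes were lower, where 18.2% of 7100 genes were called lower and 19.8% higher. Cybb fell by 2.49 ± 0.14 on the log2 scale (5.62-fold lower, adjusted p = 1.27e-20), by 2.21 in the aged and 2.78 in the young library. Cyba fell by 0.915 ± 0.14 (adjusted p = 2.775e-07) and Ncf4 by 0.64 ± 0.12 (adjusted p = 2.08e-05). Ncf1 fell by 0.37 ± 0.12 (adjusted p = 0.0124), a call that was lost with DESeq2 (adjusted p = 0.221) and without scaling factors (-0.09, adjusted p = 0.592). Rac2 did not pass the test, at -0.11 ± 0.13. Summed markers of classical monocytes in mature cells were 2748 (aged) and 2919 CPM (young) after stroke, with 14 of 14 markers detected, against 7908 and 9584 CPM in immature neutrophils, which share some of these messages, and 17600 and 23140 CPM in classical monocytes. Their part in the Cybb level of mature cells was not tested.

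Cyba, the partner of gp91phox, followed the same course over a smaller range. It rose to 2342 and 2352 CPM in immature neutrophils of aged and young marrow after stroke and to 2166 and 1976 CPM at steady state, against 173 to 228 CPM in stem and progenitor cells. In mature neutrophils it stayed at 1601 and 1431 CPM (aged and young) after stroke and 1581 and 1347 CPM in blood. Cyba was also present in every other class, with 493 to 1031 CPM in NK-like cells and 118 to 258 CPM in erythroid cells. It was thus well above 0 in NK-like cells, in which Cybb was at or near 0 in 3 of 4 libraries.

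The organiser Ncf1 was the most neutrophil-weighted of the cytosolic genes by level. Immature neutrophils held 744 and 788 CPM (aged and young) after stroke and 925 and 901 CPM at steady state. Mature neutrophils held 735 and 705 CPM after stroke, and 688 (aged) but 279 CPM (young) in blood, so that the young blood library stood apart from the other 3. Monocytes held less, 147 to 312 CPM in classical and 209 and 136 CPM in nonclassical cells of aged and young blood. Plasmacytoid dendritic-like cells held 206 to 227 CPM, within the range of the monocytes.

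Ncf4, whose product p40phox binds phosphoinositides on the phagosome membrane, was highest a step earlier by plain CPM, although the scaled test of immature over dividing cells gave 0.08 ± 0.06 (adjusted p = 0.222). It stood at 551 and 537 CPM (aged and young) after stroke and 476 and 476 CPM at steady state in dividing pre-neutrophils. Immature cells had 472 and 433 CPM after stroke and 425 and 411 CPM at steady state. Mature cells had 369 and 336 CPM after stroke, and 262 and 193 CPM in aged and young blood. The dividing and immature levels of different libraries nearly touched, while those of progenitors, 120 to 160 CPM, and of stem cells, 47.4 to 73.8 CPM, did not overlap with them.

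Rac2, the haematopoietic Rac GTPase, varied least. Its level was 246 to 380 CPM in stem and progenitor cells, 983 to 1304 CPM in dividing, 977 to 1437 CPM in immature and 1086 to 1233 CPM in mature neutrophils, and the last 3 ranges overlapped. It was as high in plasmacytoid dendritic-like cells (830 to 1146 CPM) and reached 595 to 1044 CPM in NK-like cells. Its paralogue Rac1 had 146 to 200 CPM in immature neutrophils, 258 to 384 CPM in mature neutrophils and 423 to 638 CPM in classical monocytes.

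By the median over libraries, the order of classes differed between the genes. Cybb was highest in nonclassical monocytes (2253 CPM), immature neutrophils (2043 CPM) and classical monocytes (2037 CPM). The range of immature neutrophils overlapped with both others, while the nonclassical values (2151 and 2356 CPM) lay above all classical ones (438 to 2064 CPM), and dividing pre-neutrophils (1279 CPM) came next. These medians mix contexts, since nonclassical cells came from 2 blood libraries only and the other classes also from marrow after stroke. At steady state, immature neutrophils of both marrow libraries lay above both nonclassical values. B-lineage cells followed dividing monocytes at a median of 272 CPM, above mature neutrophils at 184 CPM, with overlapping ranges. Cyba was highest in immature neutrophils, classical monocytes and dividing pre-neutrophils (2254, 2243 and 2222 CPM), with overlapping ranges. Ncf1 was highest in immature, mature and dividing neutrophils (844, 697 and 510 CPM), and only the young blood library made the ranges of mature and dividing cells overlap. Ncf4 was highest in dividing pre-neutrophils (506.5 CPM) and immature neutrophils (429 CPM). Rac2 was highest in mature and immature neutrophils (1198 and 1159 CPM), with overlapping ranges.

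At the level of single cells, thinned to 1000 UMIs each, fewer mature than immature cells held a UMI of Cybb. At this depth the share follows the level, so fewer expressing cells and less RNA per cell cannot be told apart. The share was 68.8% (63.6% to 73.6%, exact 95% interval) and 68.45% in immature neutrophils of aged and young marrow after stroke and 88.5% and 88.65% at steady state. It was 20.2% and 14.8% in mature cells after stroke, and 8.27% (7.32% to 9.30%) and 4.83% (3.79% to 6.05%) in mature cells of aged and young blood. NK-like cells of aged and young blood had 0.735% and 0.926%, at median depths of 5628 and 5600 UMIs against 4018 and 3976 UMIs in mature neutrophils. Unthinned, 24.2% and 14.5% of mature cells in aged and young blood had a Cybb UMI. Rac2, by contrast, was seen in 62.7% to 76.4% of immature and 64.3% to 70.1% of mature cells. A UMI of all 5 genes in the same thinned cell was found in 7.51% and 5.34% of immature neutrophils of aged and young marrow after stroke and in 11.5% and 11.9% at steady state, and in at most 1.55% of mature cells of any library.

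**Figure D2:**
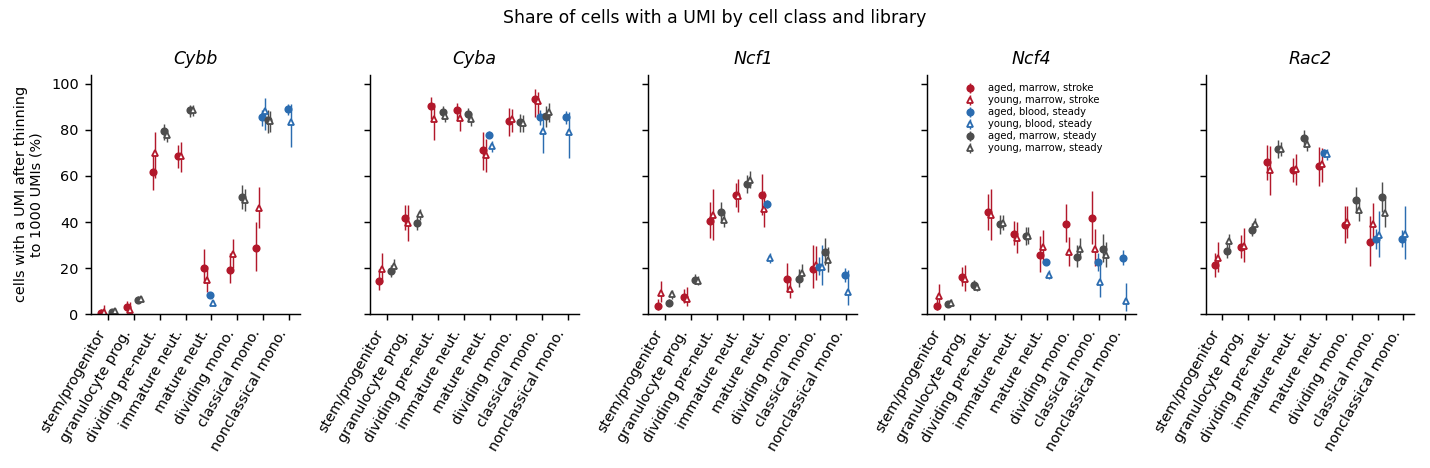
Share of cells with at least 1 UMI of each gene after thinning every cell to 1000 UMIs, by cell class and library, with exact binomial 95% intervals. For Cybb the share drops to 4.83% to 20.2% in mature neutrophils, while that of Rac2 stays between 64.3% and 70.1%.

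Of the other genes of the complex, some rose and some fell in mature over immature cells. Rac1 rose by 0.54 ± 0.13 (adjusted p = 0.000417). Hvcn1, the proton channel that offsets the charge moved by the oxidase, fell by 2.98 ± 0.30 (adjusted p = 8.95e-12) and Arhgdib, an inhibitor of GDP release from small GTPases, by 0.89. Cybc1, the chaperone that gp91phox needs to mature, stood at -0.04 ± 0.25 and did not pass the test. Of 6 other components reported here (Rac1, Hvcn1, Arhgdib, Cybc1, Arhgdia and Rap1a), 1 was called higher and 3 lower in that step, 5 higher and 1 lower in dividing over granulocyte progenitors, and 2 higher and 1 lower in immature over dividing cells.

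Genes that feed or trigger the oxidase moved with the stages as lists that had been chosen with earlier results of these data known. The signalling list held mostly receptors, kinases and exchange factors upstream of the oxidase, and also S100a8 and S100a9, which encode calcium-binding proteins. Of 30 tested, 26 were higher and 1 lower in dividing over granulocyte progenitors, with a median of 1.15 against -0.03 for all genes. S100a9 (6.95), S100a8 (6.60), the formyl peptide receptor Fpr2 (5.91) and the complement receptor C5ar1 (5.83) gained most. In immature over dividing cells 25 of 29 were higher and 1 lower (median 0.68 against 0.02), led by Fpr1 (2.90), Fpr2 (2.36), the Rac exchange factor Prex1 (1.63) and the integrin chain Itgam (1.42). In mature over immature cells 14 of 29 were higher and 3 lower (median 0.24), with Fpr1 (1.53), Pik3cd (1.23), Fcgr3 (1.06) and Fcgr4 (0.97) in front.

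The genes that supply NADPH did otherwise in the last step. All 10 tested were higher in granulocyte progenitors over stem cells (median 1.11), and 8 were higher and 1 lower in dividing over granulocyte progenitors, led by G6pdx (2.28), the first enzyme of the pentose phosphate pathway. In mature over immature cells 3 were higher and 5 lower (median -0.57), with Me2 (-1.67), Pgls (-1.66), Rpe (-1.36) and Tkt (-0.90) lowest. Of 20 genes that use or remove peroxide, 18 were tested in the step to dividing cells, 6 higher and 8 lower. Mpo, the enzyme that turns peroxide into hypochlorous acid, fell by 2.99 there and by 2.54 in the step to immature cells. Of 10 myeloid regulators tested in mature over immature cells, 5 were higher and 2 lower, with the granule regulator Cebpe lower (-2.94) and Cebpb (1.84), Irf1 (1.32) and Elf1 (0.64) higher. The other NOX family was hardly measured: of 9 listed genes 3 were in the table, and no more than 1 passed the count filter in any comparison.

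Classical monocytes, set against immature neutrophils of the same 4 marrow libraries, had lower values of all 5 genes, where 31.8% of 9037 genes were called lower and 33% higher. Ncf1 differed most, by -3.015 ± 0.16 (adjusted p = 1.75e-07), then Rac2 (-2.14), Cybb (-1.96 ± 0.23, adjusted p = 3.09e-05), Ncf4 (-1.37) and Cyba (-0.93). Without scaling factors the median of all genes stood at 1.11 and Cyba at 0.17 (adjusted p = 0.173), so its direction depends on the scaling, while Ncf1 (-1.91), Rac2 (-1.04), Cybb (-0.86) and Ncf4 (-0.27) remained lower. In plain CPM Cybb stood at 438 and 676 CPM in classical monocytes of aged and young marrow after stroke, against 1410 and 1517 CPM in immature neutrophils, and at 2042 and 2064 CPM at steady state, against 2571 and 2570 CPM. Dividing monocytes had 205 and 283 CPM of Cybb after stroke and 737 and 725 CPM at steady state. Rac1 ran the other way, higher in monocytes by 0.51 ± 0.12 (adjusted p = 0.00396).

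In blood over marrow at steady state, the neutrophils compared were mature cells in blood and immature cells in marrow, since neither library pair held both. All 5 genes were lower, where 33.3% of 10270 genes were called lower and 34.2% higher. Cybb was 98.4 and 60.7 CPM in aged and young blood, against 2571 and 2570 CPM in aged and young marrow, a difference of -5.45 ± 0.22 (43.7-fold lower, adjusted p = 1.45e-10). Ncf1 differed by -1.46 ± 0.23, by -0.83 in aged and -2.09 in young mice. Ncf4 differed by -1.30, Cyba by -0.91 and Rac2 by -0.56, and the last call was lost without scaling factors (-0.15, adjusted p = 0.375). Hvcn1 was lower (-4.92) and Rac1 higher (0.57). Tissue, maturity and gate cannot be told apart here.

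In classical monocytes of blood over marrow, 1 of 5 genes was lower, where 5.58% of 8230 genes were called lower and 10.5% higher. Rac2 had 441 and 373 CPM in aged and young blood, against 660 and 623 CPM in aged and young marrow (-0.40 ± 0.13, adjusted p = 0.0371), and this call was lost with DESeq2 (adjusted p = 0.495), with no filter on low counts (adjusted p = 0.114) and with doublets kept (adjusted p = 0.0501). Cybb had 2054 and 2031 CPM in blood and 2042 and 2064 CPM in marrow (0.26 ± 0.11, adjusted p = 0.138). Ncf1 (-0.39), Ncf4 (-0.29) and Cyba (-0.02) did not pass the test either. Without scaling factors Ncf1 (-0.66) and Ncf4 (-0.55) were called lower as well and Cybb was at -0.01. Most classical monocytes of aged blood lay in a cluster led by Fn1, Chil3 and F13a1 (437 aged cells) and most of young blood in another, led by Gm13588, Ms4a4c and Gm13604 (84 young cells).

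After stroke, the 2 membrane subunits moved in opposite directions in dividing and immature neutrophils and in classical monocytes of marrow, although by library totals alone Cyba passed no threshold in immature neutrophils (0.18, adjusted p = 0.132). In immature neutrophils Cybb was lower, with 1410 and 1517 CPM in aged and young marrow after stroke, against 2571 and 2570 CPM at steady state (-0.51 ± 0.09, adjusted p = 0.000637). Cyba was higher, with 2342 and 2352 CPM after stroke, against 2166 and 1976 CPM at steady state (0.48 ± 0.09, adjusted p = 0.000995). Ncf4 was higher as well (0.42 ± 0.10, adjusted p = 0.00702), while Ncf1 (0.05) and Rac2 (-0.12) did not pass the test. Thus 2 genes were called higher and 1 lower, where 12.2% and 8.61% of 8698 genes were. With DESeq2 the call of Ncf4 was lost (adjusted p = 0.0706). Dividing pre-neutrophils gave the same calls, with Cybb at -0.35 ± 0.09 (adjusted p = 0.0175), Cyba at 0.49 and Ncf4 at 0.49, where 13.6% of 9952 genes were called higher and 8.65% lower. There the Cybb call was lost with DESeq2 (adjusted p = 0.0524), and Ncf1 (-0.05) and Rac2 (-0.0048) did not pass the test.

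Among the 5 classes tested, classical monocytes showed the greatest stroke difference of Cybb. They held 438 and 676 CPM in aged and young marrow after stroke, against 2042 and 2064 CPM in aged and young marrow at steady state, a difference of -1.50 ± 0.12 (2.82-fold lower, adjusted p = 4.25e-31), with no overlap between the pairs. The aged pair alone gave -1.81 and the young pair -1.20, a gap of -0.61 (-0.77 to -0.44, counting error only), which 1 library per group does not allow to be tested. Ncf1 was also lower (-0.50 ± 0.15, adjusted p = 0.00418), while Cyba (0.68 ± 0.12, adjusted p = 3.95e-08) and Ncf4 (0.56 ± 0.14, adjusted p = 0.000404) were higher and Rac2 (0.04) did not pass. That is 2 higher and 2 lower, where 21.5% and 19.1% of 8237 genes were called. With DESeq2, Ncf1 and Ncf4 lost their calls (adjusted p = 0.226 and 0.0688). Summed classical monocyte markers were 17600 and 23140 CPM after stroke, against 19750 and 18970 CPM at steady state. The B-lineage marker sum moved with the Cybb difference, at 39.6 and 57.2 CPM after stroke, against 2164 and 1210 CPM at steady state, with Vpreb1, Igll1 and Fcmr at 0 in all 4 libraries and 3 and 7 of 14 markers seen after stroke against 9 and 7 at steady state. So did that of nonclassical monocytes, at 206 and 283 CPM against 1128 and 1157 CPM, with Ace and Cd300e at 0 after stroke. Named B-lineage cells held 142 to 394 CPM of Cybb and nonclassical monocytes 2151 and 2356 CPM. The B-lineage list includes Cd74, which is also on the list of conventional dendritic cells. The part of these sums in the difference was not tested. Unnamed cells lay outside the class, among them a stroke cluster of 87 aged and 90 young cells with 766 and 1010 CPM of Cybb. At Leiden resolution 0.5 no stroke cluster was named classical monocytes. A cluster of 384 cells with that best match was left unnamed there as mixed with immature neutrophils. The stroke test of this class was not run at that resolution, nor with doublets kept. Blood monocytes of both ages, at 2054 and 2031 CPM, sat with those of steady-state marrow. Basophil and mast-like cells were not tested. Their Cybb was at 0.972 CPM (1 UMI in 68 cells, 0.0246 to 5.42 CPM) in aged marrow after stroke, against 189.6 CPM (163 to 219) in aged and 165 CPM (138 to 197) in young marrow at steady state.

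Of the other listed genes in classical monocytes after stroke, S100a8 (4.42), S100a9 (2.99), C5ar1 (2.76) and Fpr1 (2.37) rose most among 30 signalling genes, of which 6 were higher and 15 lower. Of 18 peroxide genes 10 were higher and 2 lower, with Gclm (2.10), Gpx4 (1.86) and Glrx (1.25) higher and Mpo lower (-3.12). Irf8 (-1.35) and Klf4 (-1.27) were lower and Cebpb higher (0.86) among 10 regulators, of which 3 were higher and 5 lower. In immature neutrophils 8 of 29 signalling genes were higher and 5 lower, and 3 of 19 peroxide genes higher and 3 lower, with Gpx4 higher (1.72) and Mpo lower (-2.55). Hvcn1 was lower there by -0.45 (adjusted p = 0.0281).

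In the progenitors after stroke, Ncf4 was the most shifted member with TMM scaling, though not by library totals alone. Granulocyte progenitors held 160 and 143 CPM in aged and young marrow after stroke, against 120 and 121 CPM at steady state (0.69 ± 0.11, adjusted p = 3.78e-08). Cyba was higher (0.28 ± 0.09, adjusted p = 0.0103) and Ncf1 lower (-0.31 ± 0.11, adjusted p = 0.0113), where 24.3% and 26% of 13446 genes were called higher and lower. Rac2 (-0.08) did not pass. Ncf4 (0.75 ± 0.15, adjusted p = 0.000441) and Ncf1 (0.59 ± 0.15, adjusted p = 0.00527) were called higher in stem and progenitor cells, where 16.1% of 12684 genes were called higher and 14.1% lower. Cybb (-0.40), Cyba (0.27) and Rac2 (0.12) did not pass in that class. The scaled Ncf1 ratio was 0.94 (0.72 to 1.16) in the young and 0.21 (-0.04 to 0.46) in the aged pair. The class was made up of different clusters in the 2 conditions. After stroke it held a cluster led by Dntt, Il12a and Cox6a2 with 106 of 177 young cells and 48 of 255 aged cells and 182 (aged) and 183 CPM (young) of Ncf1, which at Leiden resolution 0.5 fell into a cluster named plasmacytoid dendritic. At steady state a cluster also led by Dntt, with B-lineage genes, had 196 CPM (aged) and 209 CPM (young) and was left unnamed and outside the class. Another stroke cluster of the class had 28.0 CPM (aged) and 34.8 CPM (young), against 77.7 and 84.1 CPM in the largest steady-state cluster. The part of this makeup in the Ncf1 difference was not tested. Several of these calls depended on the processing: in stem and progenitor cells Ncf1 was lost with DESeq2 (adjusted p = 0.139) and with doublets kept (adjusted p = 0.067), and in granulocyte progenitors Ncf1 was lost with DESeq2 (adjusted p = 0.211) and Cyba with no filter on low counts (adjusted p = 0.0633) and with doublets kept (adjusted p = 0.266). Cybb in granulocyte progenitors, at -0.16 ± 0.12 (adjusted p = 0.291), was at 0.55 with doublets kept (adjusted p = 0.0056).

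The stroke directions rest in part on scaling. Without scaling factors the median of all genes stood at -0.32 in immature neutrophils and dividing cells, -0.44 in classical monocytes and granulocyte progenitors and -0.46 in stem cells. Cybb was then lower still, by -0.82 in immature neutrophils and -1.91 in classical monocytes. Cyba was at 0.18 (adjusted p = 0.132) and Ncf4 at 0.11 (adjusted p = 0.388) in immature neutrophils, higher than the median gene but past no threshold, and Rac2 was lower (-0.42, adjusted p = 0.0101). In dividing pre-neutrophils Ncf4 lost its call (0.19, adjusted p = 0.0736), and Ncf1 (-0.35) and Rac2 (-0.30) were called lower. In classical monocytes Ncf4 lost its call (0.14, adjusted p = 0.408), and Rac2 was called lower (-0.37). In stem and progenitor cells Ncf4 (0.32) and Ncf1 (0.16) lost their calls and Cyba (-0.16) and Rac2 (-0.31) changed sign, Rac2 being called lower, and Cybb was called lower (-0.83, adjusted p = 0.00964) at levels near those of erythroid cells. In granulocyte progenitors Cyba changed sign (-0.09), Ncf1 (-0.67), Cybb (-0.52) and Rac2 (-0.44) were called lower, and Ncf4 stayed higher (0.33). Of the genes called after stroke, the share called higher with TMM and without scaling was 58.6% and 20.2% in immature neutrophils, 61.1% and 21.6% in dividing cells, 52.9% and 21.9% in classical monocytes, 48.4% and 21.7% in granulocyte progenitors and 53.4% and 15.2% in stem cells. The same shares were 49.3% and 28.2%, 48.5% and 22.3%, 50.3% and 30.9%, and 52.1% and 74.2% for the 4 neutrophil stage steps in order, 50.95% and 87.2% for monocytes over immature neutrophils, 50.7% and 66.3% for blood over marrow neutrophils and 65.4% and 25.9% for blood over marrow monocytes. The steady-state and stroke libraries also differ in the mitochondrial share that had been allowed before deposit (up to 4.99% and 9.95%), and library preparation cannot be told apart from stroke.

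**Figure D3:**
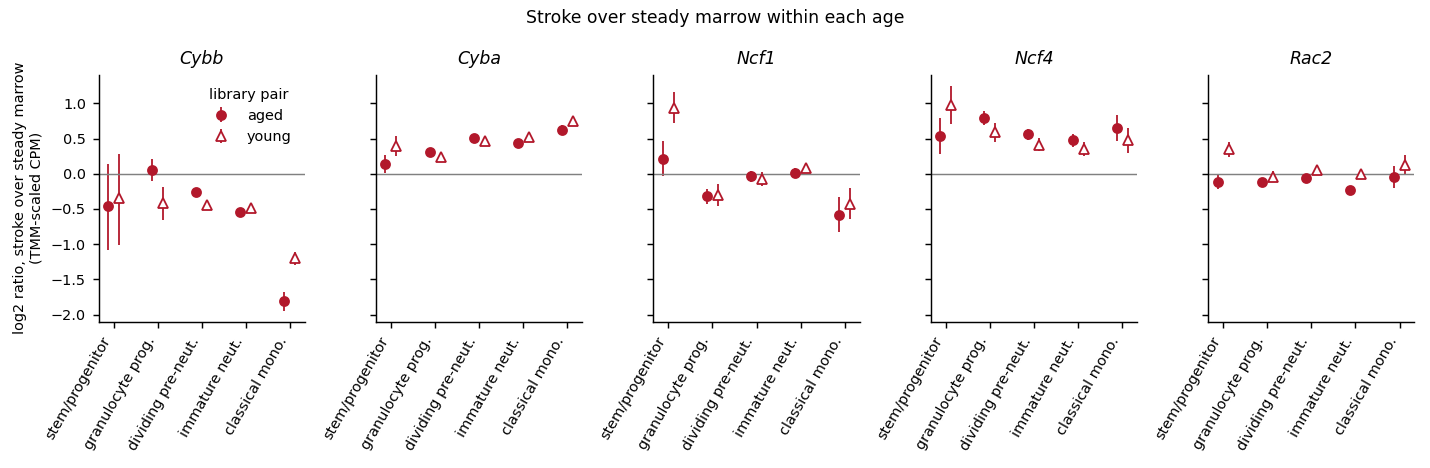
Log2 ratio of TMM-scaled CPM in marrow after stroke over marrow at steady state for each gene and class, for the aged (filled) and young (open) pair of libraries, with counting 95% intervals. Cybb lies below 0 in neutrophils and monocytes in both pairs, down to -1.81 in aged classical monocytes, and Cyba and Ncf4 lie above 0 in every class with this scaling; by library totals alone Cyba is at -0.16 in stem cells and -0.09 in granulocyte progenitors.

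The age differences of the 5 genes were small in the neutrophil lineage of marrow. In immature neutrophils the log2 differences of aged over young ran from -0.02 (Cybb) to 0.12 (Ncf4), in dividing pre-neutrophils from -0.04 (Ncf1) to 0.03 (Rac2), and in granulocyte progenitors from -0.09 (Ncf1) to 0.08 (Ncf4). None of the 5 was called in any of these fits, where 0.046% of 8698, 0.01% of 9952 and 0.491% of 13446 genes were called. At an unadjusted p under 0.05, and with DESeq2, 0 of the 5 passed in these 3 fits too, while 437 of all genes had such an unadjusted p in immature neutrophils. Of the other lists, the signalling gene S100a9 (-0.36) and the regulators Klf4 (-0.61) and Irf8 (-0.50) were lower with age in granulocyte progenitors, and no listed gene was called in dividing or immature cells.

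Of the 5 members, only Ncf1 was called with age, in stem and progenitor cells. Cybb (-0.34), Rac2 (-0.31), Ncf4 (-0.30) and Cyba (-0.24) lay below 0 there too and did not pass. In edgeR's test 3 of 5 members and 1421 of 12684 genes had an unadjusted p under 0.05. Ncf1 had 48.4 CPM in aged and 112 CPM in young marrow after stroke, and 56.6 CPM in aged and 77.6 CPM in young marrow at steady state, so it was lower in aged cells of both pairs (-0.81 ± 0.15, adjusted p = 0.00247), where 1.21% of 12684 genes were called lower and 2.1% higher. The value was -0.48 without either stroke library and -1.20 without either steady-state library. With DESeq2 the call was lost (adjusted p = 0.136). The class was made up differently in the 2 ages. At steady state a cluster with Hlf, Mecom and Mmrn1 among its leading genes held 280 aged and 39 young cells, and its Ncf1 was 23.0 CPM (15.9 to 32.1) in aged and 32.3 CPM (10.5 to 75.4) in young cells. The largest cluster held 403 aged and 621 young cells with 77.7 CPM (68.7 to 87.6) and 84.1 CPM (75.1 to 93.9). After stroke, the cluster described above as led by Dntt, Il12a and Cox6a2 held 48 aged and 106 young cells with 182 and 183 CPM. Another held 72 aged and 5 young cells with 3.79 CPM in the aged cells. The counting intervals of aged and young overlapped in these clusters where both ages had more than 5 cells. They did not in another steady-state cluster, led by Dntt and Ctla2a, with 44.5 CPM (35.7 to 54.9) in 168 aged and 67.8 CPM (56.2 to 81.1) in 193 young cells. At Leiden resolution 0.5 the stroke cluster led by Dntt, Il12a and Cox6a2 was named plasmacytoid dendritic. The age test of stem and progenitor cells was not run at that resolution. Among regulators, Irf8 was lower (-1.44) and Cebpb higher (0.59) with age in this class, and the signalling gene Pla2g4a was higher (0.70).

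In mature neutrophils the largest age difference was that of Ncf1 in blood. Aged blood cells held 688 CPM (674 to 703) and young blood cells 279 CPM (266 to 293). After stroke the mature cells of marrow held 735 CPM (680 to 792) in aged and 705 CPM (654 to 760) in young mice. On the scaled log2 scale the blood pair gave 1.29 (1.21 to 1.36) and the stroke pair 0.18 (0.02 to 0.33). Over both pairs Ncf1 was at 0.75 ± 0.23 and Cybb at 0.63 ± 0.19, and neither passed in edgeR's quasi-likelihood test (adjusted p = 0.454 and 0.396; 2 of 5 members and 487 of all genes had an unadjusted p under 0.05, and 0 members passed with DESeq2), where 0.0774% of 9047 genes were called. With no filter on low counts Ncf1 passed in this fit (0.77, adjusted p = 0.0233). Ncf4 (0.35), Cyba (0.25) and Rac2 (0.004) did not pass. Cybb was higher in aged cells of both pairs, with 368 and 270 CPM (aged and young) after stroke and 98.4 and 60.7 CPM in blood. After stroke the larger cluster held 395 CPM in aged and 311 CPM in young cells, and 59 young cells of another held 119 CPM. The part of this makeup in the difference was not tested. The young blood value lies inside the counting interval of NK-like cells, so its level alone is not read as expression. By share, however, thinned mature cells of young blood held a Cybb UMI more often than NK-like cells of that library (above). Joined with immature cells over all 6 libraries, Ncf1 stood at 0.46 ± 0.21 (adjusted p = 0.669), which passed with no filter on low counts (0.50, adjusted p = 0.0291) and came to 0.06 without the aged or without the young blood library. The other 4 joined values ran from 0.07 (Rac2) to 0.27 (Cybb), and none passed, where 0.0548% of 9127 genes were called.

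The blood difference of Ncf1 was present within each cluster of mature cells, although the ages filled the clusters unequally. In the cluster led by Stfa1 and Retnlg, 1417 aged cells had 682 CPM (662 to 703) and 177 young cells 293 CPM (254 to 336). In that led by Csf1 and Il1b, 1313 aged cells had 711 CPM and 127 young cells 381 CPM (325 to 444). In that led by Gm6977 and Lrg1, 105 aged cells had 585 CPM (519 to 658) and 953 young cells 269 CPM. In the cluster led by the interferon-response genes Rsad2 and Ifit3, 238 aged cells had 658 CPM and 229 young cells 265 CPM. The intervals of aged and young were apart in 4 of 4 clusters. Ncf4 and Cyba were also higher in aged cells in 4 of 4 clusters, with intervals apart in 3 of 4 for each. Cybb was higher in 4 of 4 as well, with intervals apart in 2 of 4. In the cluster led by Stfa1 and Retnlg, Ncf4 had 261 CPM (248 to 274) in aged and 188 CPM (157 to 224) in young cells, and Cyba 1544 CPM (1513 to 1575) in aged and 1368 CPM (1282 to 1459) in young cells. Rac2 differed by little in the same cells, with 1233 CPM in aged and 1196 CPM in young mature cells. Ncf1 was higher as well in aged blood monocytes, at 239 CPM in aged and 147 CPM in young classical cells and at 209 and 136 CPM in nonclassical cells, but not in B-lineage cells (164 and 191 CPM). These values compare 1 aged with 1 young blood library, and the animal, the library and age cannot be told apart.

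**Figure D4:**
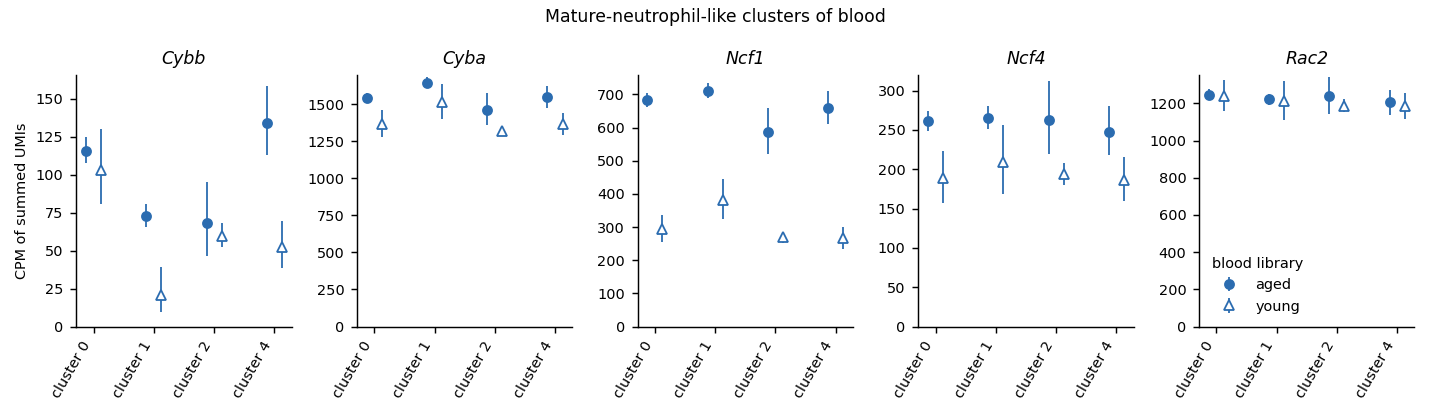
CPM of each gene in the 4 mature-neutrophil-like clusters of blood, for aged (filled) and young (open) cells, with exact Poisson 95% intervals; axes start at 0. Ncf1 is 585 to 711 CPM in aged and 265 to 381 CPM in young cells of every cluster, while the Rac2 intervals of aged and young overlap.

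In classical monocytes no member passed the age test over 3 pairs, where 0.0622% of 8039 genes were called. Cybb stood at -0.22 ± 0.13 (adjusted p = 0.934), made up of -0.67 (-0.81 to -0.52) after stroke, -0.01 in blood and -0.02 in steady-state marrow. Ncf1 stood at 0.22 ± 0.15, with 0.67 (0.44 to 0.90) in blood, -0.10 after stroke and 0.09 in steady-state marrow. Over the pairs, Ncf4 stood at 0.12, Rac2 at 0.05 and Cyba at 0.02. No gene of the other lists was called in either mature neutrophils or classical monocytes.

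**Figure D5:**
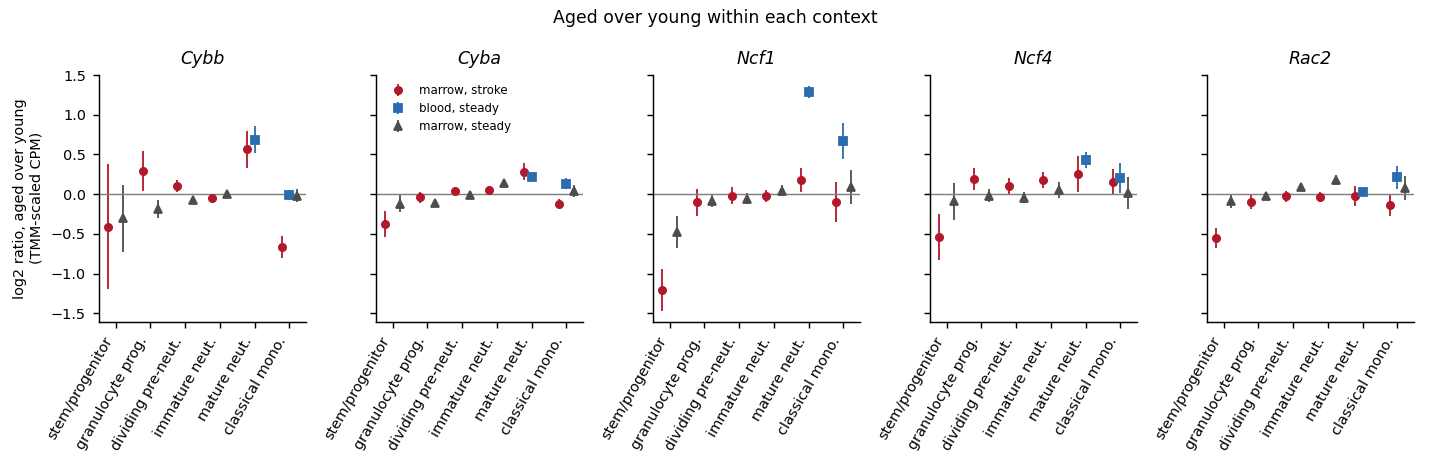
Log2 ratio of TMM-scaled CPM in aged over young cells for each gene and class within each context, with counting 95% intervals. The blood pair of mature neutrophils lies at 1.29 for Ncf1 and the stem and progenitor pairs at -1.20 and -0.48, while most other points lie near 0.

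Across 60 sums of class and library and 5968 genes, the genes whose levels went most like those of each member were found by Pearson correlation of log2(CPM + 5), given as a description since the sums share libraries. For Cybb they were Ceacam1 (0.915), Aldh3b1 (0.886) and Degs1 (0.87). For Cyba they were AB124611 (0.91), Vsir (0.907) and Ncf4 (0.905), and for Ncf4 they were Cyba (0.905), Hp (0.87) and Mgst1 (0.87). For Ncf1 they were Rgs19 (0.88), Rogdi (0.88) and Ckap4 (0.88). For Rac2 they were Rcsd1 (0.92), Arhgap4 (0.85) and Sun2 (0.82). Cybb went with Cyba at 0.81, with Ncf1 at 0.80, with Ncf4 at 0.76 and with Rac2 at 0.47.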

How the data were processed

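For all 6 libraries the authors deposited a single table of UMI counts that had not been normalized (10x 3′ v3.1 chemistry, per the labels' protocols). The submitters' processing notes name STAR 2.5.3a, featureCounts 1.6.4, Subread, UMI-tools, Cell Ranger 3.0.2 and the build GRCm38 (mm10). The role of each tool and the handling of reads with several matching genes are not given in the sources used here.

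A cell had to hold 500 UMIs or more, 200 genes or more and no more than 10% mitochondrial UMIs. Cells with an own Scrublet-type doublet score above 0.25 were left out, 0.353% to 3.23% per library; in the stroke libraries only 4.57% and 9.59% of simulated doublets exceeded this score, so doublets remain there. Each context was clustered (2000 variable genes, 30 components, 15 neighbours, Leiden resolution 1; scikit-learn 1.9.0, leidenalg 0.10.2) and named from marker lists; the naming thresholds were set after cluster tables had been seen. Counts summed per class and library (30 cells or more) were tested with edgeR 4.0.16 (R 4.3.3; TMM, filterByExpr, quasi-likelihood, additive models), with DESeq2 1.42.0 as an alternative. Scripts were tested on simulated data. Pair ratios use scaled CPM with counting intervals; intervals cover counting error only.

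The members, lists and comparisons were chosen with earlier results of these data known. All members are given in every comparison, by value or within a stated range. Of other lists the text gives, for part of the comparisons, counts called and, of called genes with a mean of 20 CPM or more, up to 4 with the largest change. Scaling by library totals and leaving out clusters of low UMI count were alternatives chosen after seeing the data. The planned set of alternatives was otherwise run as listed. The comparison in mature cells holds the 4 libraries with such a class. Some genes of the lists are not reported here.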

Additional observations from a re-analysis of the deposited data

Results flagged for a closer look

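Some age or stroke ratios pointed in opposite directions in different pairs of libraries, each beyond its counting interval. The differences were not tested, since each pair is 2 libraries. Cybb in granulocyte progenitors, aged over young, was 0.29 on the log2 scale (0.036 to 0.54) after stroke and -0.19 (-0.30 to -0.078) at steady state. Cybb in dividing pre-neutrophils, aged over young, was 0.10 (0.030 to 0.17) after stroke and -0.075 (-0.11 to -0.036) at steady state. Cyba in classical monocytes, aged over young, was -0.12 (-0.18 to -0.059) after stroke, 0.13 (0.065 to 0.20) in blood and 0.040 (-0.038 to 0.12) in steady-state marrow. Rac2 in stem and progenitor cells, stroke over steady state, was -0.11 (-0.22 to -0.0092) in aged and 0.35 (0.24 to 0.46) in young mice.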

How the results depend on the processing

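The stage calls of Cybb, its lower level in stroke neutrophils and monocytes and its lower level in blood neutrophils kept direction under every setting run, and kept the call under every tested setting except DESeq2 in dividing pre-neutrophils (adjusted p = 0.0524). Not every setting was run for each of these. Stroke in classical monocytes was run neither with doublets kept nor at Leiden resolution 0.5, where the class lacked libraries. Comparisons of stem and progenitor cells were not run at resolution 0.5 either. Over 95 member values per setting, 93 kept direction and call when scaled by the size factors of DESeq2, 84 where DESeq2 did the testing, 90 with no filter on low counts and 66 without scaling factors; 73 of 80 did with doublets kept, 53 of 55 at the coarser Leiden resolution of 0.5 and 85 of 85 without clusters of low UMI count. The causes were not tested.

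Without scaling factors these changed sign: aged over young, Ncf1 in immature (-0.022) and Rac2 in mature neutrophils (-0.048); stroke over steady state, Cyba (-0.16) and Rac2 (-0.31) in stem cells, Cyba in granulocyte progenitors (-0.086), Ncf1 in immature neutrophils (-0.26) and Rac2 in classical monocytes (-0.37); blood over marrow, Cybb in monocytes (-0.012); immature over dividing cells, Cyba (-0.0083) and Ncf4 (-0.23); mature over immature, Rac2 (0.18); and monocytes over immature neutrophils, Cyba (0.17). With doublets kept, Cybb was at 0.19 with age in stem cells, Cybb at 0.55 with stroke in granulocyte progenitors and Rac2 at -0.0030 with age in mature cells. With no filter on low counts, Cyba was at 0.030 in blood over marrow monocytes. Values near 0 also changed sign with DESeq2 size factors (Rac2, -0.0059 with age in mature cells and 0.0057 with stroke in dividing cells), the DESeq2 test (-0.0059 and 0.0057 for the same) and Leiden resolution 0.5 (Ncf1, -0.0081 with age in immature cells; Rac2, 0.0024 with stroke in dividing cells).

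The age call of Ncf1 in stem cells was lost with DESeq2 (-0.84). That of Ncf1 in joined neutrophils was gained with no filter on low counts (0.50). The blood call of Rac2 in monocytes was lost with DESeq2 (-0.40), with no filter (-0.35) and with doublets kept (-0.36).

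Leaving out 1 library at a time, Ncf1 with age ran from -1.20 to -0.48 in stem cells and from 0.058 to 0.69 in joined neutrophils, Cybb with stroke in classical monocytes from -1.80 to -1.15 and Cybb in blood neutrophils from -5.83 to -5.09. In classical monocytes with age, Cyba ran from -0.045 to 0.083, Ncf1 from -0.0059 to 0.37 and Rac2 from -0.032 to 0.14, each lowest without the young blood library.

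Counts of genes called with age moved by more than 1.5 times in every class. In stem cells (420) they were 63 with the DESeq2 test and 632 with no filter. In granulocyte progenitors (66) they were 34 with DESeq2 size factors, 41 unscaled, 8 with the DESeq2 test, 1 without clusters of low UMI count and 10 with doublets kept. In dividing cells (1) they were 28 with DESeq2 size factors, 73 with no filter, 78 with no scaling, 11 with the DESeq2 test, 76 with doublets kept and 84 at Leiden resolution 0.5. In immature cells (4) they were 7 with DESeq2 size factors, 28 with no filter, 1 with the DESeq2 test, 14 without clusters of low UMI count, 9 at Leiden resolution 0.5 and 0 both unscaled and with doublets kept, where edgeR gave 401 and 334 genes at an unadjusted p under 0.05. In joined neutrophils (5) they were 101 with no filter and 0 to 67 leaving out a library (0 without either steady-state marrow library, where edgeR gave 662 and 697 genes at an unadjusted p under 0.05). In mature cells (7) they were 1 with DESeq2, 62 with no filter and 31 with doublets kept. In classical monocytes (5) they were 3 with DESeq2, 91 with no filter and 3 to 87 leaving out a library.

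With the DESeq2 test the stroke counts were 1215 in stem cells (3824 with edgeR), 3078 in granulocyte progenitors (6764), 736 in dividing cells (2211), 430 in immature neutrophils (1808) and 1088 in classical monocytes (3340), and the others were 4236 in blood neutrophils (6932), 392 in blood monocytes (1325) and 870 in mature over immature cells (2697). Without scaling they were 6643 with stroke in stem cells, 4052 with stroke in dividing cells and 2008 in blood monocytes, and with doublets kept 1020 with stroke in immature neutrophils.

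Shares of cells depend on depth: 90 of 90 moved without thinning and 87 of 90 at 2000 UMIs, while the mean of the cells' CPM was 0.83 to 1.13 times the CPM of the sums. No paired analysis was possible because each group has 1 library and the groups share only the replicate number 1; this concerns age, stroke and tissue, whereas the stage comparisons pair classes within a library by a library block.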
